A study of Mus musculus with 6 samples.

Results

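The Dlx genes encode homeodomain transcription factors related to the fly gene Distal-less. The members were taken by gene symbol: Dlx1, Dlx2, Dlx3, Dlx4, Dlx5, Dlx6 and the antisense transcript Dlx6os1. Of these 7, 6 had a row among the 21827 genes measured in each library. Dlx6os1 was not analysed here. Of the 21642 gene IDs found in GENCODE M21, 99.7% are protein coding.

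RNA was taken from single mouse embryos at E10.75, from the most distal tissue of the forming mandible. There were 6 libraries, 1 labelled mutant and 1 labelled control from each of 3 litters. Per the labels, mutants are Msx1f/f, with both copies of Msx1 floxed, and controls are Msx1f/+. By the same labels every embryo is also Msx2f/f and carries Hand2-Cre, a recombinase under Hand2 regulatory sequence, and Rosa26mTmG/+, a reporter that turns recombined cells green, so that no embryo with intact Msx genes was compared. Recombination is driven where Hand2 is expressed, and GFP-positive distal tissue was dissected whole, so the RNA is that of a tissue and not of sorted cells.

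In the branchial arches of the mouse the Dlx genes are expressed in nested domains of the neural crest mesenchyme. Dlx1 and Dlx2 are active in both the upper and the lower jaw primordium, Dlx5 and Dlx6 in the lower jaw primordium, and Dlx3 and Dlx4 in its more distal part. Endothelin-1, acting through its receptor Ednra, is needed for the arch expression of Dlx5 and Dlx6, and mouse embryos without Dlx5 and Dlx6 form upper-jaw-like structures in place of the lower jaw. Msx1 and Msx2 are homeodomain factors of the same distal tissue that respond to BMP signals.

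Msx1, the gene whose floxed dose differs between the labels, went with its label in litter 1 and against it in the other litters. Levels are in TPM, which scales reads by transcript length and by the library's total. Litter 1 had 1.90 TPM of Msx1 under the label mutant and 84.1 TPM under the label control. Litter 2 had 78.8 TPM under the label mutant and 2.61 TPM under the label control, and the values of litter 3 were 73.3 TPM under the label mutant and 1.99 TPM under the label control. Each litter thus had 1 library with Msx1 under 10 TPM, called Msx1-low here, and 1 over 50 TPM, called Msx1-high. The Msx1-low libraries are those labelled mutant of litter 1 and labelled control of litters 2 and 3. An exchange of labels in litters 2 and 3 was not tested, and the genotypes of these 4 libraries are given only as labelled. Msx1-low and Msx1-high describe a measured value and are not genotypes, so differences between them are given litter by litter, without averages or tests, and every direction drawn from the labels carries the same limit.

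The tissue had the markers of arch mesenchyme. The summed level of Prrx1, Prrx2, Twist1, Twist2, Pdgfra and Tfap2b was 530 to 571 TPM in libraries labelled mutant and 571 to 576 TPM in libraries labelled control. The 4 Hox genes of more posterior arches (Hoxa2, Hoxb2, Hoxa3 and Hoxb3) were below 1 TPM in every library. Forebrain tissue also expresses Dlx1, Dlx2, Dlx5 and Dlx6, and 6 of its 8 markers were below 1 TPM in every library, with Gsx2 and Six3 listed at 0. The others were Nkx2-1, at no more than 1.72 TPM, and Lhx8, at 32.8 to 43.7 TPM, which jaw mesenchyme also expresses. The 10 epithelial markers summed to 147 to 165 TPM in libraries labelled mutant and 152 to 171 TPM in libraries labelled control, so all 6 held RNA of epithelium, which expresses some Dlx genes. Single markers went opposite ways. Krt14 was at 4.17 to 5.30 TPM under the label mutant and 1.25 to 2.24 TPM under the label control. Epcam (16.8 to 18.2 against 20.9 to 22.2 TPM) and Krt8 (12.6 to 13.3 against 13.6 to 19.7 TPM) were lower under the label mutant. The ranges of the other epithelial markers overlapped. Endothelial markers summed to 67.4 to 80.7 TPM under the label mutant and 71.5 to 75.8 TPM under the label control. The 5 neuronal markers summed to 13.4 to 15.2 and 14.8 to 18.1 TPM in the same order of labels. Much of the neuronal sum was Isl1, at 6.58 to 13.0 TPM, whereas Stmn2 did not exceed 1.59 TPM and Elavl3 not 0.502 TPM. In such bulk tissue, fewer cells of a type and less RNA per cell cannot be told apart.

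All 6 measured members passed the filter on low values, which asked for at least 1 TPM in 3 or more libraries. Dlx5 was the highest in every library, at 204 to 266 TPM, above 96.8% of the 12152 genes tested. It held 62.5% to 67.0% of the summed Dlx level, which was 325 to 397 TPM. Dlx6 came second in every library, at 45.7 to 65.8 TPM and 13.3% to 16.8% of the sum. Dlx2 (28.0 to 37.0 TPM) and Dlx3 (25.2 to 39.0 TPM) followed, and Dlx1 (2.63 to 7.64 TPM) and Dlx4 (3.19 to 4.73 TPM) were lowest, above 27.1% and 22.9% of the genes tested.

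Neighbours in this order were separated unequally. Dlx6 exceeded Dlx2 in 6 of 6 libraries, with a mean log2 ratio of TPM of 0.73 ± 0.16 (SD, n = 6). Dlx2 and Dlx3 did not differ beyond their spread: Dlx2 was the higher in 3 of 6 libraries and the mean log2 ratio was 0.07 ± 0.31 (SD, n = 6). Dlx1 and Dlx4 did not either, with Dlx1 higher in 4 of 6 libraries and a mean log2 ratio of 0.22 ± 0.65 (SD, n = 6). Dlx5, then Dlx6, then Dlx2 with Dlx3, then Dlx1 with Dlx4 was thus the order in all 6 libraries, without an order inside the last 2 of these steps.

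**Figure D1:**
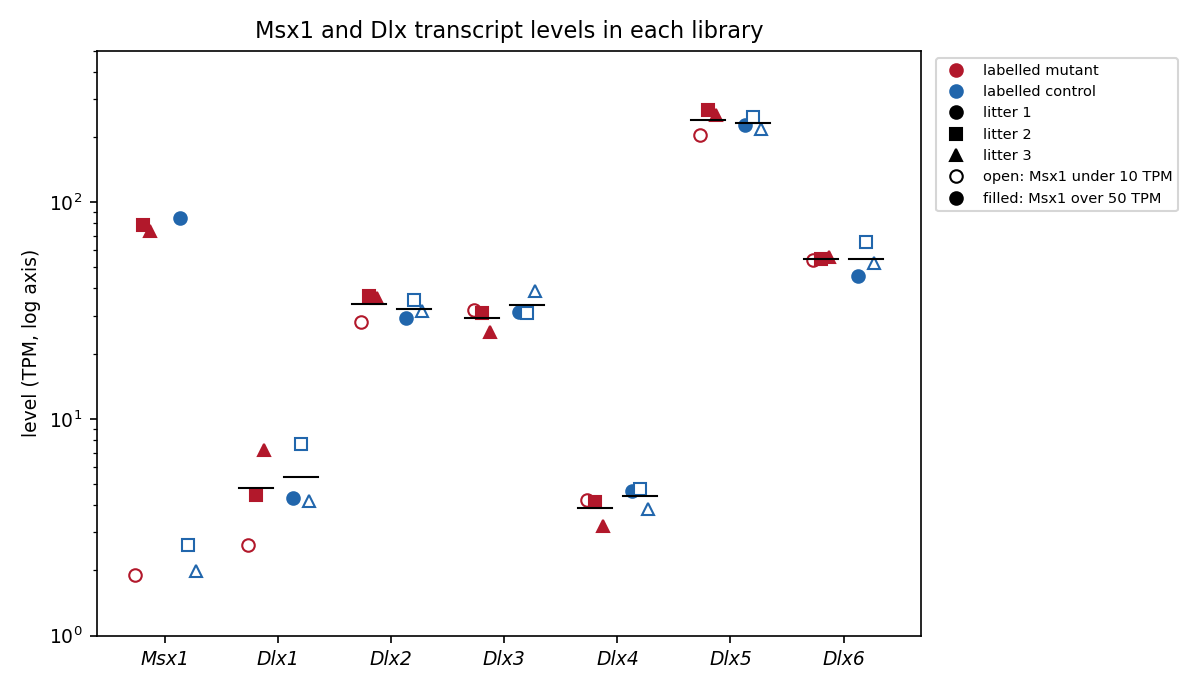
Level of Msx1 and of 6 Dlx genes in TPM (log axis) in each of 6 libraries, with libraries labelled mutant (red) left of those labelled control (blue). Symbols mark litters, open symbols libraries with Msx1 under 10 TPM, and black lines the mean of each label (not drawn for Msx1). Dlx5 lies between 204 and 266 TPM in every library, above all other Dlx genes, and the labels overlap for each Dlx gene.

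The place of Dlx6 above Dlx2 and Dlx3 belongs to the per-length scale. In the authors' deposited table the base mean, an average of size-factor-scaled counts that is not divided by length, was 1846 for Dlx5, 550.5 for Dlx3, 389 for Dlx2, 383 for Dlx6, 109 for Dlx1 and 57.4 for Dlx4. The ratio of base mean to mean TPM was 6.99 for Dlx6 and 7.82 for Dlx5, against 11.8 for Dlx2, 17.5 for Dlx3, 13.9 for Dlx4 and 21.4 for Dlx1. GENCODE M21 lists 4 transcripts for Dlx6, of 383, 605, 1071 and 2216 bases, and 1 for Dlx3, of 2607 bases. The sources used here do not say how reads of Dlx6 were divided among its transcripts.

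The genes lie as 3 convergent pairs (coordinates on GRCm38, the assembly of mm10). Dlx1 (ENSMUSG00000041911, chromosome 2, 71528113 to 71533981, plus strand) faces Dlx2 (ENSMUSG00000023391, 71543408 to 71546754, minus strand). Dlx3 (ENSMUSG00000001510, chromosome 11, 95120119 to 95125296, plus strand) faces Dlx4 (ENSMUSG00000020871, 95140447 to 95146263, minus strand). Dlx6 (ENSMUSG00000029754, chromosome 6, 6863334 to 6868568, plus strand) faces Dlx5 (ENSMUSG00000029755, 6877805 to 6882085, minus strand). Antisense genes are named for Dlx1 (Dlx1as), Dlx4 (Dlx4os) and Dlx6 (Dlx6os1 and Dlx6os2). Their overlap with the members was not measured here. No source used here states that the counting used strand, so reads of an antisense gene that overlaps a member cannot be told apart from those of the member.

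Within each pair 1 gene was the higher in all 6 libraries. Dlx2 exceeded Dlx1, with a log2 ratio of Dlx1 to Dlx2 of -2.78 ± 0.45 (SD, n = 6), a 6.87-fold difference. The log2 ratio of Dlx3 to Dlx4 was 2.93 ± 0.23 (SD, n = 6), or 7.60-fold, and that of Dlx5 to Dlx6 was 2.11 ± 0.18 (SD, n = 6), or 4.31-fold. Each ratio had p = 0.03125 in an exact two-sided sign-flip permutation test over the 6 libraries, the smallest p that 6 libraries can give. After Benjamini-Hochberg adjustment over the 3 ratios it was 0.03125 too. Any 2 genes with the same order in all 6 libraries give this p, paired or not, so it adds nothing to that order. The test also took littermates as independent. These folds are per length: by the base means of the authors' deposited table, which are not, Dlx2 exceeded Dlx1 3.57-fold, Dlx3 exceeded Dlx4 9.59-fold and Dlx5 exceeded Dlx6 4.82-fold. Of the nearest protein-coding genes outside the pairs, Metap1d, 2.92 kb from Dlx1, had 2.78 to 5.21 TPM and Itga6, on the side of Dlx2, 13.1 to 14.4 TPM. Itga3 had 5.05 to 6.15 TPM and Tac4 no more than 0.862 TPM beside Dlx3 and Dlx4. Sem1 had 42.2 to 65.2 TPM and Sdhaf3 2.81 to 3.42 TPM beside Dlx6 and Dlx5. None of these 6 neighbours passed in the authors' deposited table.

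RefSeq promoter sequences (GRCm38.p6, 250 bases before to 50 after an annotated start) were at hand for Dlx1 and Dlx2 among the measured members. These genes, neighbours on 1 chromosome, differ 6.87-fold in TPM and 3.57-fold by base mean. Any part of these sequences in that difference was not tested. The Dlx1 window is chr2:71529195-71529494 on the plus strand, which starts inside the longest GENCODE gene model, and the Dlx2 window is chr2:71546705-71547004 on the minus strand. Capitals mark matches to any of 5 motifs searched on both strands: TAATTA (the core bound by many homeodomain proteins, Dlx and Msx among them), CACGTG (an E-box), CCAAT (bound by NF-Y), TATAAA (bound by the TATA-binding protein) and GGGCGG (a GC box).
Dlx1 promoter: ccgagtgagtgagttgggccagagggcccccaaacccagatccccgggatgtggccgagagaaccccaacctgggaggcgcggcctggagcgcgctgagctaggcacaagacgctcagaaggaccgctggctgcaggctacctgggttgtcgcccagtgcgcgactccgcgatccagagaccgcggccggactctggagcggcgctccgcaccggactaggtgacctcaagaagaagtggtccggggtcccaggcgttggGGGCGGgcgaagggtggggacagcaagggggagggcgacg
Dlx2 promoter: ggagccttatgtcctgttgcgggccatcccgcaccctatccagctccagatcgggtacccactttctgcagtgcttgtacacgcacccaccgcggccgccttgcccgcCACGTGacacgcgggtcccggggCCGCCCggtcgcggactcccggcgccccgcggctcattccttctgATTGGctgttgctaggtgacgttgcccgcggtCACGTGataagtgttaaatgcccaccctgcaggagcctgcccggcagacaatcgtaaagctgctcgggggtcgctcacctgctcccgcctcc
The Dlx1 window held 1 GC box. That of Dlx2 held 2 E-boxes, 1 GC box and 1 CCAAT motif, the last 2 on the opposite strand, and no match overlapped another. Of 32851 promoters of the same length, 35.7% held a GC box, 7.15% this E-box, 37.4% CCAAT, 13.6% TATAAA and 5.29% TAATTA. Neither window had TAATTA or TATAAA in these letters. Both were rich in G and C, at 69.3% for Dlx1 and 66.3% for Dlx2, against a median of 52.7% over all promoters, with 27 and 29 CpG against a median of 7.

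Between the labels, no difference larger than the spread between embryos was detected for a Dlx gene. Of the 6 members 0 passed an adjusted p of 0.05 in limma on log2(TPM + 1), and of all 12152 genes tested 0 did (0%). At an unadjusted p under 0.05 the count was 0 of 6 members against 817 genes (6.72%). The ranges of the labels overlapped for 6 of 6 members. Over all genes they did not overlap for 13.1%, a share too small for this overlap to set the members apart.

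Dlx5 and Dlx6, the pair that marks the lower jaw primordium, had nearly equal means in both labels. By litter from 1 to 3, Dlx5 measured 204, 266 and 251 TPM under the label mutant, against 228, 248 and 219 TPM under the label control. The lowest and the highest of the 6 libraries were both labelled mutant, and the means were 240.4 ± 32.1 TPM in libraries labelled mutant and 232 ± 15.0 TPM in libraries labelled control (SD, n = 3 each), with a log2 difference of 0.05 ± 0.11 (SE; 95% interval -0.21 to 0.30; limma adjusted p = 0.932).

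In the same order, Dlx6 measured 54.4, 54.7 and 55.7 TPM under the label mutant, against 45.7, 65.8 and 52.5 TPM under the label control. The libraries labelled mutant lay close together, inside the range of those labelled control. The means were 54.9 ± 0.710 TPM in libraries labelled mutant and 54.7 ± 10.2 TPM in libraries labelled control (SD, n = 3 each), and the log2 difference was 0.02 ± 0.13 (SE; 95% interval -0.27 to 0.32; limma adjusted p = 0.970).

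Dlx2, which acts with Dlx1 in crest cells of both jaws, was at 28.0, 37.0 and 36.3 TPM in the libraries labelled mutant, against 29.2, 35.6 and 31.6 TPM in those labelled control. Both libraries of litter 1 were the lowest of the 6 for Dlx2. Between the labels Dlx2 differed by 0.06 ± 0.13 on the log2 scale (SE; 95% interval -0.24 to 0.37; limma adjusted p = 0.923). Dlx1 was the most variable member, with a coefficient of variation of 38.3% over the 6 libraries against 9.72% to 14.1% for the other 5. It was at 2.63, 4.48 and 7.23 TPM in the libraries labelled mutant, against 4.32, 7.64 and 4.16 TPM in those labelled control. The log2 difference of Dlx1 was -0.18 ± 0.32 (SE; 95% interval -0.92 to 0.57; limma adjusted p = 0.911), the widest interval of the 6.

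Dlx3, which surface ectoderm expresses beside distal mesenchyme, was at 31.7, 30.7 and 25.2 TPM in the libraries labelled mutant, against 31.0, 30.9 and 39.0 TPM in those labelled control. Both its lowest and its highest value came from litter 3, and the other 4 libraries lay between 30.7 and 31.7 TPM. Between the labels Dlx3 differed by -0.20 ± 0.13 on the log2 scale (SE; 95% interval -0.50 to 0.10; limma adjusted p = 0.754). Dlx4, its partner, was at 4.24, 4.16 and 3.19 TPM in the libraries labelled mutant, against 4.64, 4.73 and 3.84 TPM in those labelled control. In each litter the library labelled mutant was the lower, while the ranges of the labels overlapped. The share of all genes with that direction in every litter was not computed. At an unadjusted limma p under 0.05, 586 genes were lower and 231 higher under the label mutant. The log2 difference of Dlx4 was -0.16 ± 0.16 (SE; 95% interval -0.52 to 0.21; limma adjusted p = 0.834). The median log2 difference was -0.07 over the 6 members and -0.06 over all genes tested.

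Between littermates with low and high Msx1, the 18 Dlx differences (6 genes in 3 litters, Msx1-low minus Msx1-high in log2(TPM + 1)) lay between -0.67 and 0.66. Of the 6 members, 3 kept 1 direction in all litters, as did 22.7% of all genes tested. Those lower in the Msx1-low library each time were Dlx5 and Dlx2, as were 11.9% of all genes. Dlx3 was the higher each time as deposited, as were 1314 of the 12152 genes, but its differences in litters 1 and 2 were 0.03 and 0.01, and they changed sign in at least 1 of these litters under each other scaling.

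For Dlx5, litter 1 had 204 TPM in its Msx1-low and 228 TPM in its Msx1-high library, litter 2 had 248 TPM (low) and 266 TPM (high), and litter 3 had 219 TPM (low) and 251 TPM (high). Its log2 differences were -0.16, -0.10 and -0.20, and stayed negative under all 3 scalings tried, although the ranges of the Msx1-low and Msx1-high libraries overlapped for Dlx5 and for each other member. All Msx1-low libraries lay below all Msx1-high libraries for 4.95% of genes. Dlx2 differed by -0.06, -0.06 and -0.19. The value of litter 1 became 0.04 under median-of-ratios scaling, so that the common direction of Dlx2 rests on the scale. Dlx6 was at 0.25 and 0.26 in litters 1 and 2 and at -0.08 in litter 3. Dlx1 changed direction between litters, at -0.55, 0.66 and -0.67, as did Dlx4, at -0.10, 0.15 and 0.21. Dlx3 stood out in litter 3 alone, at 0.61.

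**Figure D2:**
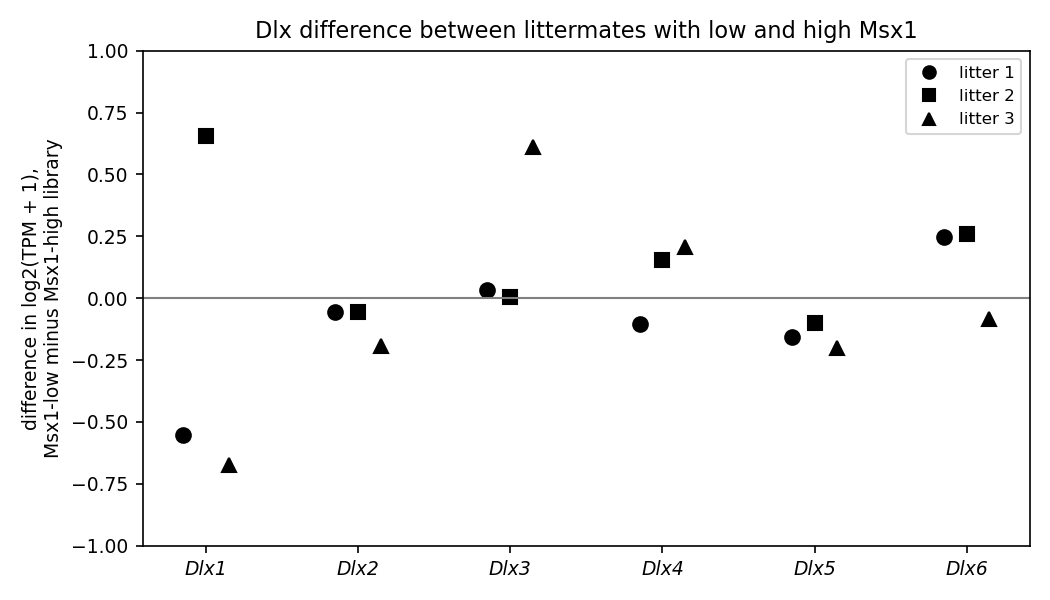
Difference in log2(TPM + 1) between the Msx1-low and the Msx1-high library of the same litter, for 6 Dlx genes, with 1 symbol per litter. Dlx5 and Dlx2 lie below 0 in all 3 litters, at -0.20 or above, and Dlx1 lies on both sides of 0, between -0.67 and 0.66.

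The balance inside a pair differed between littermates for Dlx5 and Dlx6. The ratio of Dlx5 to Dlx6 was 3.76, 3.77 and 4.16 in the Msx1-low libraries of litters 1 to 3, and 4.99, 4.86 and 4.51 in their Msx1-high littermates. The Msx1-low libraries had the 3 lowest ratios of the 6, so that the ranges did not overlap. This pattern was picked out after the values were seen and was not tested. Other genes gave such separation too: of 12151 other genes set over Dlx6, 7.83% gave lower ratios in all Msx1-low than in all Msx1-high libraries, and so did 10.4% of the ratios of Dlx5 over another gene. These shares leave out ratios that separated in the opposite direction, which were not counted. By the labels, the mean log2 ratio of Dlx5 to Dlx6 was 2.12 ± 0.19 in libraries labelled mutant and 2.10 ± 0.20 in libraries labelled control (SD, n = 3 each; exact two-sided permutation p = 1, where 3 against 3 cannot go below 0.1).

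The other pairs showed no such order. The ratio of Dlx2 to Dlx1 was 10.6, 4.66 and 7.60 in the Msx1-low libraries, and 6.74, 8.26 and 5.03 in their Msx1-high littermates. That of Dlx3 to Dlx4 was 7.48, 6.52 and 10.2 in the Msx1-low libraries, and 6.69, 7.39 and 7.89 in their Msx1-high littermates. Both ratios changed direction in litter 2. Between the labels the exact permutation p was 0.4 for Dlx1 over Dlx2 and 1 for Dlx3 over Dlx4, and 1 for each of the 3 pairs after adjustment.

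**Figure D3:**
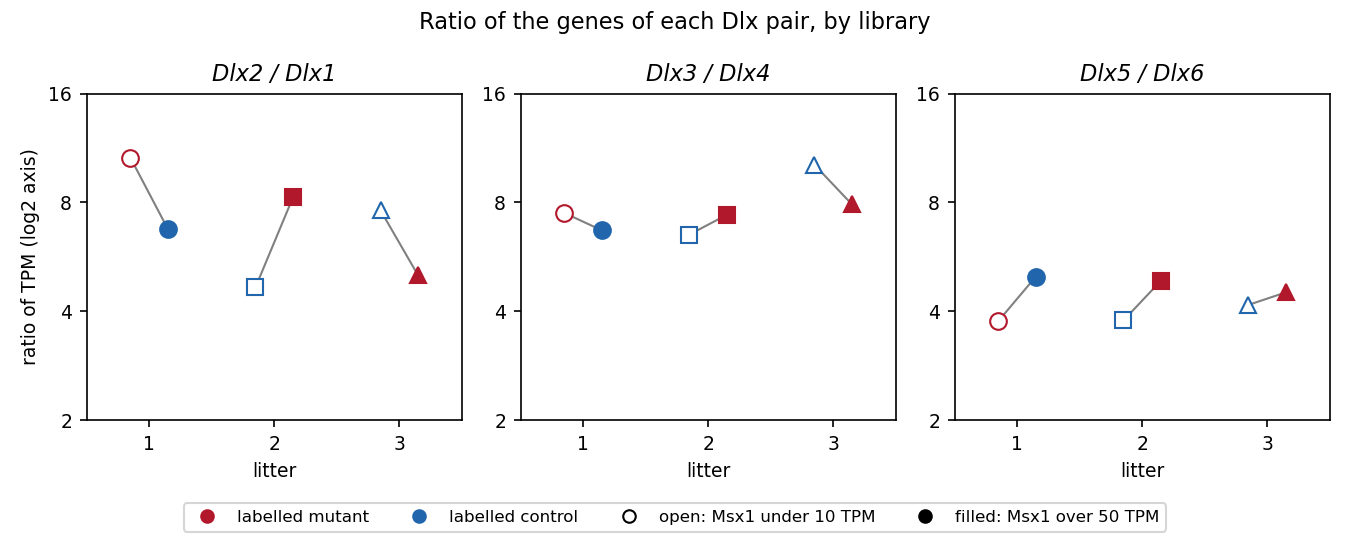
Ratio of the TPM of the genes of each Dlx pair (log2 axis) in each library, by litter, with the Msx1-low library (open) left of the Msx1-high library (filled) and grey lines joining littermates. Red marks the label mutant and blue the label control. The ratio of Dlx5 to Dlx6 is 3.76 to 4.16 in Msx1-low and 4.51 to 4.99 in Msx1-high libraries, while the other ratios cross.

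No correlation between the genes of a pair passed the threshold over the 6 libraries, a number at which only strong ones can. For Dlx1 and Dlx2, Pearson r was 0.77 (exact permutation p = 0.0861, adjusted over 3 pairs p = 0.258) and Spearman rho 0.71 (exact permutation p = 0.136, adjusted p = 0.408). Without the 2 libraries farthest from the median of Dlx1, r was 0.66. For Dlx3 and Dlx4, r was 0.36 (exact permutation p = 0.436, adjusted p = 0.489) and rho 0.20 (exact permutation p = 0.714, adjusted p = 0.714), and r became -0.25 without the 2 farthest libraries. For Dlx5 and Dlx6, r was 0.36 (exact permutation p = 0.489, adjusted p = 0.489) and rho 0.54 (exact permutation p = 0.297, adjusted p = 0.446), and r was 0.65 without the 2 farthest libraries.

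Likeness to other genes was read as Pearson r of log2(TPM + 1) over the 6 libraries among the genes with a mean of at least 10 TPM, 6873 besides the gene itself, as a description. The profile of Dlx5 was most like those of Tamm41, Nap1l1 and Rabl3, with r of 0.98, 0.96 and 0.96, whereas Dlx6 would rank 1425th with 0.36. That of Dlx2 was most like those of Csnk1g1, H1f5 and Gpr108, with r of 0.98, 0.96 and 0.96, and Dlx1 would rank 134th with 0.77. Dlx5 ranked 11th for Dlx2, with r of 0.93, a pair picked out after the values were seen. The 3 highest libraries for Dlx2 were the 3 highest for Dlx5 too, namely both of litter 2 and that labelled mutant of litter 3. Each value rests on 6 points, chosen from all these genes.

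The comparison table that the authors deposited rests on a model of its own. It does not name its direction, and Msx1 is negative in it (-5.19 ± 0.26), so its positive values stand for higher levels with less Msx1. Between the labels, limma gave Msx1 1.41 ± 1.95 (SE; adjusted p = 0.887). Which libraries the deposited comparison set against each other is not stated. Between Msx1-low and Msx1-high littermates, Msx1 differed by -4.87, -4.47 and -4.63 in log2(TPM + 1). The deposited Msx1 value is nearer to these than to that between the labels, but the grouping behind it was not tested. The deposited values and those between the labels are therefore not read as the same contrast, and their signs can differ. The authors' deposited table had 0 of the 6 members past an adjusted p of 0.05, against 14 of 14572 genes (0.0961%), and none had an unadjusted p under 0.05, against 325 of 17605 genes (1.85%). The authors' deposited table put Dlx5 at -0.15 ± 0.12 (log2 fold change with its standard error; p = 0.215) and Dlx6 at 0.14 ± 0.21 (p = 0.489). A 95% interval from that standard error runs for Dlx5 from -0.39 to 0.09.

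Dlx3 and Dlx4 were positive in the authors' deposited table, at 0.22 ± 0.18 (p = 0.222) and 0.10 ± 0.46 (p = 0.822). Negative values in the authors' deposited table belonged to Dlx1 and Dlx2, at -0.24 ± 0.40 (p = 0.541) and -0.10 ± 0.20 (p = 0.599). Every member's adjusted p was 0.999994 in the authors' deposited table. With 3 members positive and 3 negative, the median was -0.0008, beside 0.003 over all 14572 genes with an adjusted p. The widest errors belong to Dlx4 and Dlx1, the members with the lowest base means.

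Genes around the Dlx factors in the endothelin and lower jaw programme were read from a list of 19 genes, of which 17 passed the filter on low values. Between the labels 0 rose and 0 fell in limma, and 0 passed in either direction in the authors' deposited table. Between the labels 6 were positive and 11 negative, with a median log2 difference of -0.04 beside the -0.06 of all genes. The median of all 19 in the authors' deposited table was 0.02, with 10 positive and 9 negative. Edn1, the ligand upstream of Dlx5 and Dlx6, was at 0.211, 0.274 and 0.175 TPM in the libraries labelled mutant, against 0.363, 0.213 and 0.776 TPM in those labelled control. It did not pass the filter for limma, and the authors' deposited table gave it 0.31 ± 1.39 (p = 0.822). Ednra, its receptor, was at 32.0, 30.2 and 32.8 TPM in the libraries labelled mutant, against 35.8, 31.8 and 41.0 TPM in those labelled control, and differed by -0.18 ± 0.11 on the log2 scale (SE; limma adjusted p = 0.743). Hand2, a distal arch factor that depends on Dlx5 and Dlx6 in the mouse, differed by 0.01 ± 0.10 (SE; limma adjusted p = 0.989), and Gsc, a homeobox gene downstream of endothelin signalling, by 0.07 ± 0.18 (SE; limma adjusted p = 0.937).

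Gbx2, a homeobox gene that needs Dlx5 and Dlx6 for its arch expression in the mouse, had the log2 fold change farthest from 0 of the 19 in the authors' deposited table, and was higher in each Msx1-low library than in its littermate. Its Msx1-low libraries had 7.22, 8.08 and 7.99 TPM, and their Msx1-high littermates 4.02, 3.08 and 4.39 TPM. The 3 Msx1-low libraries lay above all Msx1-high libraries, as they did for 4.36% of the genes tested. Gbx2 was singled out after its values were seen and the deposited table rests on the same embryos, so this separation is a description and no independent result. In the authors' deposited table the Gbx2 log2 fold change was 1.04 ± 0.43, with p = 0.0160 unadjusted and 0.999994 adjusted, and between the labels limma gave -0.39 ± 0.31 (SE; adjusted p = 0.789). Of the list, Barx1 (0.38 ± 0.14, p = 0.00871), Gbx2 and Rgs5 (-0.36 ± 0.18, p = 0.0451) had the smallest unadjusted p in the authors' deposited table. Between littermates as deposited, 9 of the 17 list members kept 1 direction in every litter, against the 22.7% of all genes, with 6 higher and 3 lower in the Msx1-low libraries. Under median-of-ratios scaling 5 were higher, against 12.2% of all genes, and 4 lower, against 12.5%.

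**Figure D4:**
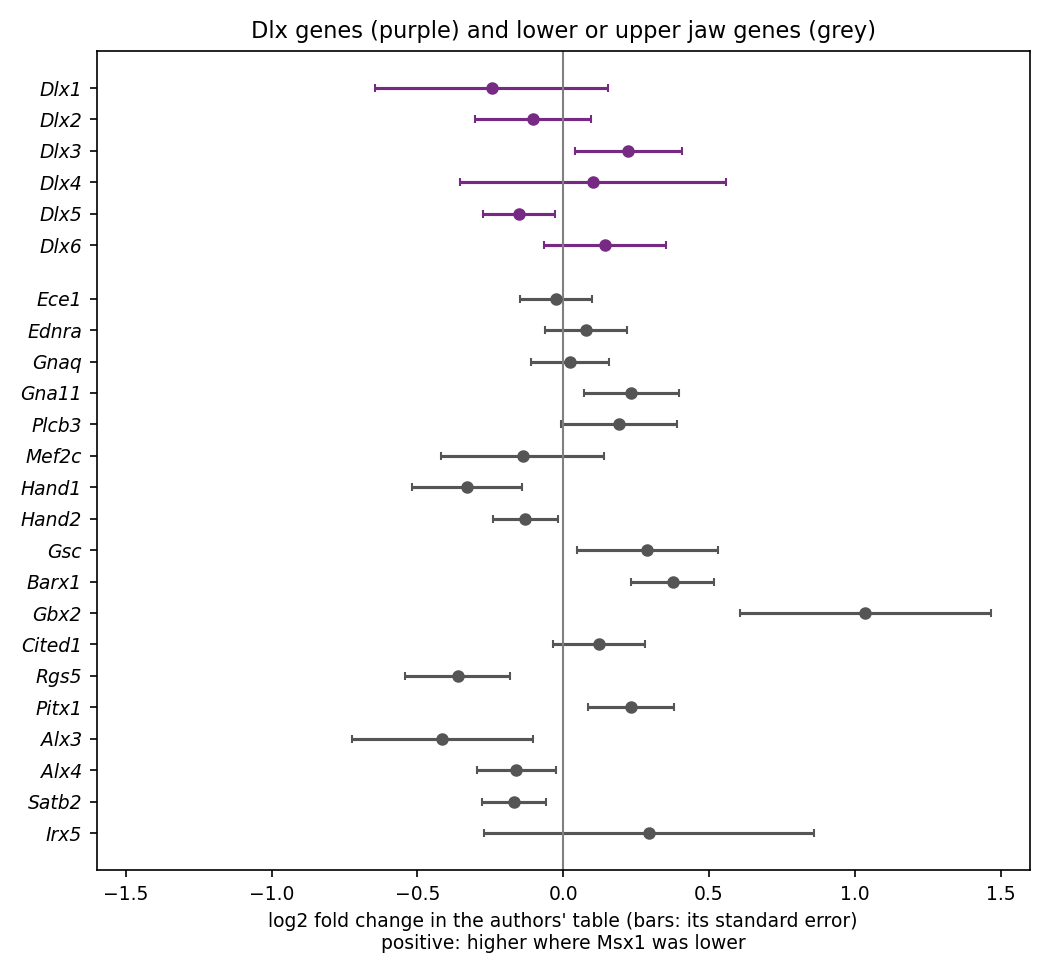
Log2 fold change in the authors' deposited table with its standard error (bars) for 6 Dlx genes (purple) and the 18 tested genes of the lower and upper jaw lists (grey), positive where the level was higher with low Msx1. The Dlx values lie between -0.24 and 0.22, and Gbx2 lies farthest from 0, at 1.04.

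Genes of the upper jaw that are repressed by Dlx5 and Dlx6 in the mouse arch were low. Pou3f3 did not exceed 0.224 TPM and Foxl2 not 0.699 TPM in any library, and neither passed the filter for limma. In the authors' deposited table they were at -0.23 ± 1.33 (p = 0.865) and -0.35 ± 1.31 (p = 0.792). Irx5 was at 3.16, 2.13 and 2.02 TPM in the libraries labelled mutant, against 2.84, 2.56 and 2.79 TPM in those labelled control, and differed by -0.13 ± 0.18 on the log2 scale (SE; limma adjusted p = 0.878). The authors' deposited table gave Irx5 0.29 ± 0.57 (p = 0.602).

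The libraries were not alike in other ways. The mitochondrial share of TPM was 8.03% for the control-labelled library of litter 1, the Msx1-high one there, and 6.02% to 6.51% for the other 5. Without it, the log2 differences between the labels were -0.001 for Dlx2 and -0.10 for Dlx6, both positive with it, and none of the members passed the threshold. Haemoglobin genes, which mark red blood cells, held 1.07% to 3.06% of the listed TPM in libraries labelled mutant and 0.958% to 1.32% in libraries labelled control. The library labelled mutant of litter 1 had the highest share and also the lowest level of Dlx1, Dlx2 and Dlx5. Without that library, the log2 differences between the labels were 0.12 for Dlx1, 0.19 for Dlx2 and 0.16 for Dlx5, none past the threshold. The part of blood or mitochondrial RNA in these levels was not tested beyond a scaling that leaves haemoglobin and mitochondrial genes out, under which Dlx5 and Dlx2 kept their direction in each litter.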

How the data were processed

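The authors deposited 1 TPM value per gene for each of 6 libraries, per the file headers. The submitters' processing notes list DESeq2, Salmon 1.5.2 and mm10, with no roles or settings. TPM keep no depth, so the reads behind each value are unknown and precision is judged from the spread between embryos. The deposited comparison table holds, per the file headers, a base mean (a signal, the mean of size-factor-scaled counts), a log2 fold change with its standard error, a Wald score, and unadjusted and adjusted p-values, given as the authors' values. Its direction, its model and the libraries on each side are not stated.

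Labels were compared with limma 3.58.1 in R 4.3.3 (variance trend, robust moderation) on log2(TPM + 1), for genes at 1 TPM or more in 3 or more libraries, two-sided, with Benjamini-Hochberg adjustment over all genes. The pseudocount of 1 shrinks the differences of low genes. The fit was tested on simulated data. Ratios and correlations used exact permutation tests in SciPy 1.17.1. The Msx1-low and Msx1-high libraries of a litter were told apart by Msx1 itself and are described only. Litter pairs the libraries, per the labels. Deviations of littermates from their label means had correlations of -0.05, -0.03 and -0.03, and litter as a block was an alternative. The 6 libraries differed from each other, with Pearson r of 0.988 to 0.991.

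The named genes are the members, Msx1, Hand2, fixed and smallest-p genes of the jaw lists, the nearest protein-coding neighbours, and for Dlx2 and Dlx5 the 3 most correlated genes. Members, lists and tests were chosen with earlier results of these data known. Positions are from GENCODE M21 and RefSeq GRCm38.p6, on the assembly of mm10.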

Additional observations from a re-analysis of the deposited data

How the results depend on the processing

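The count of 0 genes higher and 0 lower between the labels held under every planned setting except 2 that left out a library, and over the libraries left out it ranged from 0 to 1 higher (1 without labelled control of litter 1) and from 0 to 1 lower (1 without labelled mutant of litter 1). No Dlx member passed under any setting, with adjusted p from 0.542 to 0.999. With the replicate block (litter as a paired term) the counts were 0 higher and 0 lower, and the block changed no call. Leaving out each library in turn gave log2 differences of -0.47 to 0.12 for Dlx1, -0.0053 to 0.19 for Dlx2, -0.26 to -0.09 for Dlx3, -0.23 to -0.05 for Dlx4, -0.029 to 0.16 for Dlx5 and -0.10 to 0.16 for Dlx6. The sign changed for Dlx1, Dlx2, Dlx5 and Dlx6 in 6 such fits and under no other setting. Dlx4 could not be tested under a mean of at least 5 TPM. The pair ratios kept their direction without each library, at -2.89 to -2.66 for Dlx1 over Dlx2, 2.84 to 2.97 for Dlx3 over Dlx4 and 2.07 to 2.15 for Dlx5 over Dlx6, where 5 libraries cannot give a p below 0.0625. No setting brought a pair correlation past the threshold.

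Depth is unknown. With 3 embryos per label, and Msx1 against the label in 4 of 6 libraries, the labelled comparison can show little about the dose of Msx1. The intervals of Dlx1 and Dlx4 are the widest.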
